A study of Homo sapiens with 2 samples.

Results

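The genes described here are 36 human genes of mitosis: cyclins and kinases that start it, the spindle checkpoint, kinetochore and spindle proteins, and the enzymes that end it. They were taken by symbol from a table of 26485 genes, and all 36 were found and measured in it. RNA was sequenced from 2 established cell lines of leiomyosarcoma, a cancer of smooth muscle. The SK-LMS-1 and SK-UT-1 cells were each given only the solvent DMSO, for a time that the labels do not state, and each line has 1 library of total RNA. The study's title concerns an inhibitor of the histone methyltransferase SUV39H2 used together with a PARP inhibitor in uterine leiomyosarcoma. The comparison here asks how the lines differ under solvent, and all ratios are SK-LMS-1 over SK-UT-1.

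Mitosis begins when cyclin B binds CDK1 and the CDC25 phosphatases remove the phosphates that hold the kinase inactive. The spindle checkpoint then delays chromosome separation until every kinetochore, the protein structure on the centromere, holds microtubules. Separation follows when the anaphase-promoting complex (APC/C), a ubiquitin ligase, marks cyclin B and securin for destruction. Most of these genes are transcribed in G2 phase and mitosis, and their RNA is low in non-dividing cells, which is why several serve as proliferation markers in tumours. In RNA from whole cultures, a larger share of cells in G2 and mitosis and more RNA in each such cell cannot be told apart.

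The libraries held 6906280 counts in SK-LMS-1, against 7635850 in SK-UT-1. Levels are CPM, the usual counts per megaread, with library totals adjusted by TMM factors (edgeR's trimmed mean of log ratios). Measured genes, 14324 in all, had at least 1 CPM in either line. Parentheses after a fold hold its interval of 95%, which covers counting error of fragments taken as independent, and nothing else. With 1 library per line there is no replicate check, no test between the lines and no p-value, so each difference compares these libraries and not the lines at large. The smooth muscle marker list was present in part: 9 of its 11 genes were measured, summed at 1467 CPM in SK-LMS-1, against 529 CPM in SK-UT-1. The list was mixed, with 5 measured genes higher and 3 lower in SK-LMS-1 by 2-fold or more. CALD1 (749 CPM in SK-LMS-1, against 343 CPM in SK-UT-1), MYLK (414 CPM in SK-LMS-1, against 9.94 CPM in SK-UT-1) and TAGLN (61.8 CPM in SK-LMS-1, against 5.34 CPM in SK-UT-1) were among the higher. ACTA2 was lower, at 10.5 CPM in SK-LMS-1, against 54.0 CPM in SK-UT-1, as were DES, with 1 count in SK-LMS-1, against 26 in SK-UT-1, and LMOD1, with 4 in SK-LMS-1, against 10 in SK-UT-1. MYOCD, the activator of the contractile programme, was at 0 counts in both lines, and MYH11, smooth muscle myosin, had 5 counts in SK-LMS-1, against 2 in SK-UT-1. Summed epithelial markers stood at 99.7 CPM in SK-LMS-1, against 47.1 CPM in SK-UT-1, and leukocyte markers at 92.0 CPM in SK-LMS-1, against 15.7 CPM in SK-UT-1. The higher sums in SK-LMS-1 rest on KRT18 (73.3 CPM, against 10.6 CPM in SK-UT-1) and CD68 (91.9 CPM, against 14.5 CPM in SK-UT-1). Both lists were mixed, with 2 of 4 measured epithelial genes and 1 of 2 leukocyte genes lower in SK-LMS-1. The lower ones were KRT19 (9.92 CPM, against 19.3 CPM in SK-UT-1), EPCAM and CD14 (each 1 count, against 9 in SK-UT-1). Summed endothelial markers stood at 1.22 CPM in SK-LMS-1, against 0 in SK-UT-1. The leukocyte marker PTPRC and the endothelial markers VWF, KDR and TEK were at 0 counts in both lines. The part of these differences in the ratios of the mitotic genes was not tested.

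Mitotic genes were mostly lower in SK-LMS-1, and by modest amounts. Of the 36 genes, 29 were lower in SK-LMS-1 (80.6%), against 49.7% of all measured genes, and 7 were higher, against 50.3%. At 1.5-fold or more, 17 were lower in SK-LMS-1, against 28.3% of measured genes, and 4 were higher, against 30.8%. At 2-fold or more, 7 were lower in SK-LMS-1 (19.4%), against 18.3% of all measured genes, a share near the background. By the same fold, 0 were higher in SK-LMS-1, against 21.9%. The other 29 (80.6%) lay within 2-fold, against 59.8%. The median log2 ratio of the 36 genes was -0.49, with quartiles of -0.76 and -0.17. The median over all measured genes was 0.01.

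Mitotic genes are abundant, and abundant genes differed less between the lines. Among 8445 genes at 20 CPM or more, 48.4% were lower in SK-LMS-1 and 11.6% were lower by 2-fold or more. Of the 35 mitotic genes at that level, 29 and 7 were. The whole 95% interval lay below equality for 28 of 36 genes, against 36.3% of measured genes, and above it for 6, against 37.9%. AURKA and PRC1 were the remaining 2. Intervals narrow with more counts, so these shares depend on abundance too, and those over all genes at 20 CPM or more were not computed. The 36 genes together took 0.884% of the counts in SK-LMS-1 (0.877 to 0.891), against 1.299% in SK-UT-1 (1.291 to 1.307).

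**Figure D1:**
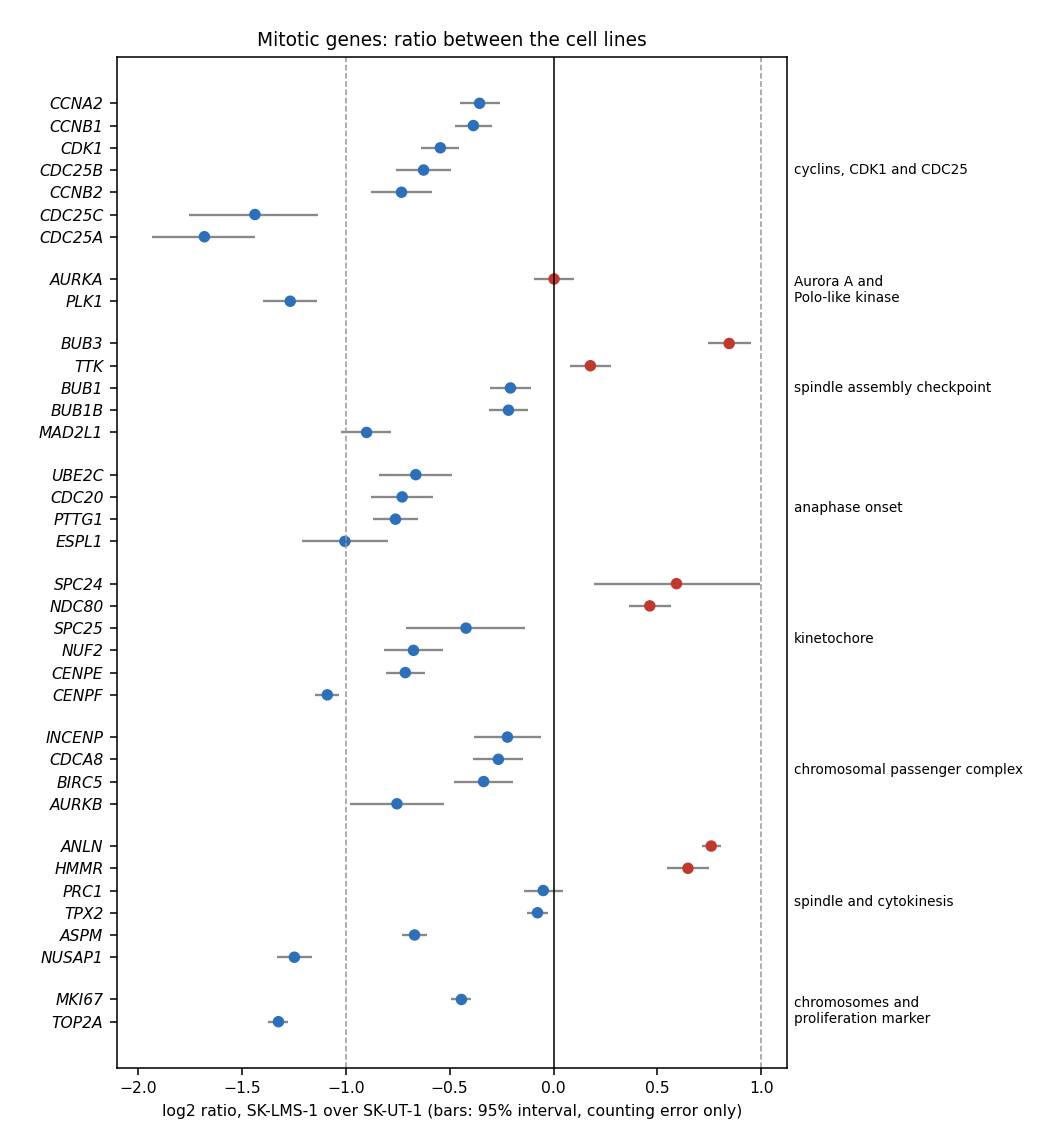
Log2 ratio of each of the 36 mitotic genes, SK-LMS-1 over SK-UT-1, grouped by role. Blue points, left of the solid line, were lower in SK-LMS-1 and red ones higher, bars are intervals of 95% for counting error, and dashed lines mark 2-fold; 29 points lie left of the solid line and none lies right of 2-fold.

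**Figure D2:**
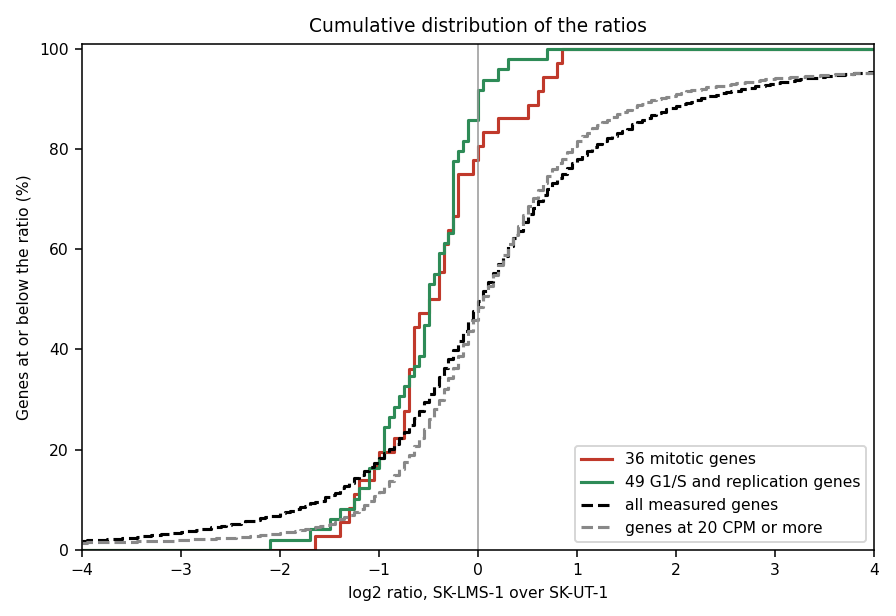
Share of genes (%) at or below each log2 ratio, SK-LMS-1 over SK-UT-1, for the 36 mitotic genes, 49 genes of G1/S phase and DNA replication, all 14324 measured genes and the 8445 at 20 CPM or more. The steep mitotic curve crosses equality at 80.6%, that of the G1/S and replication genes at 91.8% and that of all measured genes at 49.7%.

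Near the start sites of most, but not all, of these genes lay sequence elements that the choice of genes did not use. The cell cycle homology region (CHR) is the element through which the DREAM and B-MYB-MuvB complexes hold G2 genes down in resting cells and switch them on later, and CCAAT boxes bind the factor NF-Y. RefSeq promoter windows on GRCh38.p14, from 250 bases before to 50 after a start site, matched 30 of the 36 genes by symbol, with 39 windows. AURKA, BIRC5, BUB3, TPX2, TTK and UBE2C had no entry. A CHR core (TTTGAA, or alternatively TTCGAA, on either strand) lay in 25 of the 39 windows (64.1%), against 16.4% of all 35116 windows. CCAAT on either strand lay in 30 (76.9%), against 34.6%. Both stood in 21 windows (53.8%), against 6.38%. An E2F-type element (TTTGGCGC, TTTCCCGC, TTTCGCGC or TTTGCCGC, either strand) lay in 4 windows (10.3%), against 3.31%. These searches can overlap one another and some genes have several overlapping windows. A match is a run of letters and not a shown binding site.

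The promoters of CDC25A and CDC25C are shown because these genes had the lowest ratios, and those of ANLN and HMMR because they had the highest ratios among genes with an entry. PLK1 and CCNB2 are added as genes lower in SK-LMS-1 with a CHR core near the start, so they do not show how its position varies. In some other genes lower in SK-LMS-1 the core began elsewhere (negative before the start). It began at -194 and -151 in TOP2A, 14 in NUSAP1, 41 in CENPF and 25 in MAD2L1. Each line runs from 150 bases before to 30 bases after the start site, 5' to 3' on the gene's strand, credited to RefSeq, GRCh38.p14. Capitals mark CHR core, CCAAT and E2F-type matches on either strand, so that CCAAT on the opposite strand reads as its reverse complement.
CDC25A (chr3:48188388-48188567, minus strand): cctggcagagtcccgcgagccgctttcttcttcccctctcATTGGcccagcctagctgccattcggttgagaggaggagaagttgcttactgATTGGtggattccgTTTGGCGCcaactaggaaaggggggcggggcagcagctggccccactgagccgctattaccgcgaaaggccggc
CDC25C (chr5:138331775-138331954, minus strand): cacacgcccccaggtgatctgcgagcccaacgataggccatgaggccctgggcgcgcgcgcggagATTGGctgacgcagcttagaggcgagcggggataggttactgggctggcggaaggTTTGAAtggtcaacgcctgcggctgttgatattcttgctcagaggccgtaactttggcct
PLK1 (chr16:23678739-23678918, plus strand): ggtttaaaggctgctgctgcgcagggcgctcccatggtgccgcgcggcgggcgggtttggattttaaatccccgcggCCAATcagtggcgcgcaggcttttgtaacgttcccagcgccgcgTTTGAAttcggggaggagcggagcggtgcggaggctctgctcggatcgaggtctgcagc
CCNB2 (chr15:59104996-59105175, plus strand): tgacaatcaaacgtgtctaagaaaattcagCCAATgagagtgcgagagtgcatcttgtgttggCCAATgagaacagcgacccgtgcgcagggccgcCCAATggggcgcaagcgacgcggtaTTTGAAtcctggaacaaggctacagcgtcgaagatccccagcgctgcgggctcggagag
HMMR (chr5:163460482-163460661, plus strand): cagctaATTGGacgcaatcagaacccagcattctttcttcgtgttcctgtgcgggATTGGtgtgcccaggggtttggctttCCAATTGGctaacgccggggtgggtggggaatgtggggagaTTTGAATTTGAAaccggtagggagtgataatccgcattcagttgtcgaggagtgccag
ANLN (chr7:36389712-36389891, plus strand): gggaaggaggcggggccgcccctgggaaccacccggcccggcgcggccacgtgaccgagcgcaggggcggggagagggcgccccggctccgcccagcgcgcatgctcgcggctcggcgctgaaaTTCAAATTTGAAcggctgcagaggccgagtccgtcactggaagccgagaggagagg

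The CHR core began 30 bases before the start site in the CDC25C window shown and 29 before it in PLK1 and CCNB2, which were lower in SK-LMS-1. It lay 28 and 22 bases before the start in HMMR and 26 and 20 before it in ANLN, which were higher in SK-LMS-1. CDC25C has 4 windows in all. An overlapping one holds this same CHR core, at position 44 after its own start, and the others hold none. CDC25A, with the lowest ratio, held an E2F-type match 44 bases before its start and no CHR core in this window. Over all member windows, the 34 CHR matches had a median position of -24.5 and the 67 CCAAT matches one of -87. A site that lies in overlapping windows of a gene is counted in each. The CHR core was thus found at genes with ratios in either direction. The CHR core also lay in 42.9% of windows of other kinetochore genes and also of entry and exit regulators. The share was 39.5% for centrosome and spindle genes and 38.5% for cohesin and condensin genes. For other APC/C genes it was 16.1%, near the 16.4% of all windows, and for genes often used as scaling controls 5.26%. CCAAT lay in 35.5% (other APC/C genes) to 57.1% (other kinetochore genes) of the windows of these lists, with 42.1% for the scaling controls. In the list of G1/S and DNA replication genes 3.77% of 53 windows held a CHR core, 47.2% an E2F-type match and 62.3% CCAAT.

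**Figure D3:**
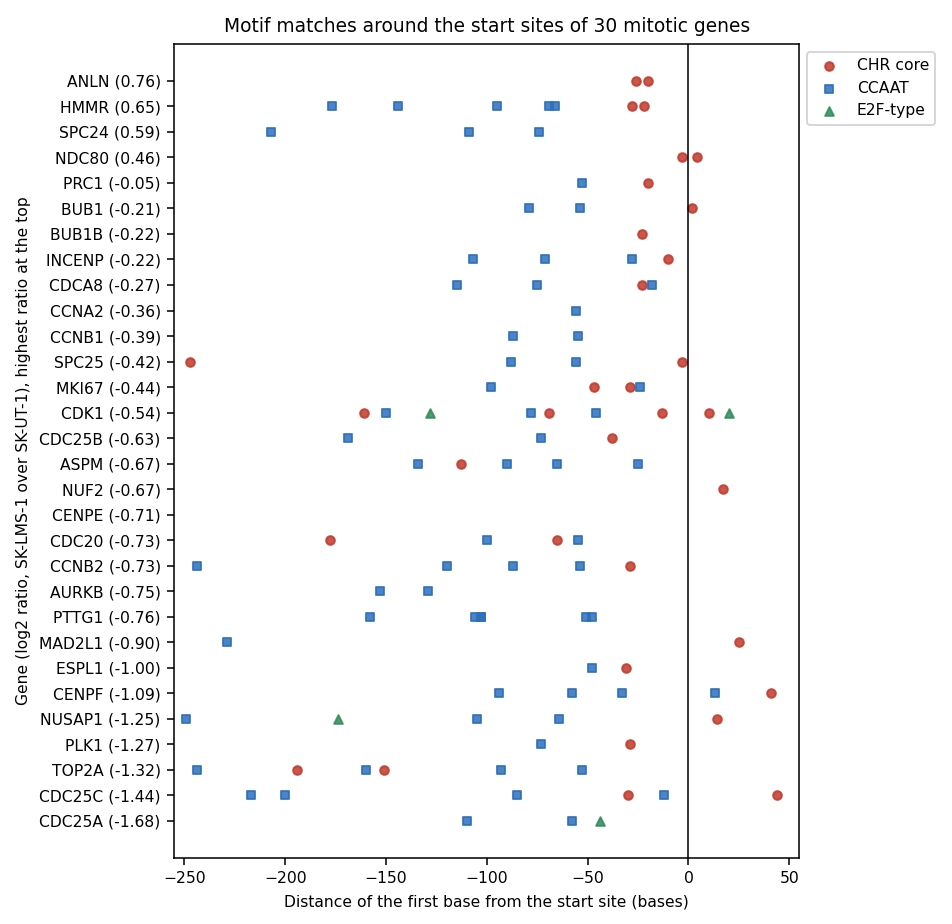
Position of each motif match relative to the start site (bases, negative before it) for the 30 mitotic genes with a RefSeq window, highest ratio of SK-LMS-1 over SK-UT-1 at the top. All windows of a gene share its row, so a site in overlapping windows appears more than once. CHR cores cluster just before the start with a median of -24.5, and CCAAT boxes lie further out at -87. Both occur at genes with ratios in either direction, but ANLN at the top has no CCAAT and CDC25A at the bottom no CHR core.

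All 7 genes of the cyclin, CDK1 and CDC25 group were lower in SK-LMS-1, and CDC25A and CDC25C differed most. By any amount, 49.7% of all measured genes and 29 of the 36 mitotic genes were lower. CDC25A, which also acts on entry into S phase, stood at 25.8 CPM in SK-LMS-1, against 82.6 CPM in SK-UT-1, 3.20-fold lower in SK-LMS-1 (2.70 to 3.82), the lowest ratio of the 36 genes. CDC25C, a phosphatase of mitotic entry, stood at 17.4 CPM in SK-LMS-1, against 47.1 CPM in SK-UT-1, 2.71-fold lower in SK-LMS-1 (2.19 to 3.37). It rests on 114 counts in SK-LMS-1, against 379 in SK-UT-1. CDC25B, thought to start CDK1 activation at the centrosome, was 1.54-fold lower in SK-LMS-1 (1.41 to 1.69), at 113 CPM there and 174 CPM in SK-UT-1. The 3 phosphatases therefore did not keep their proportions. CDC25A had 0.264 times the per-length level of CDC25B in SK-LMS-1, against 0.549 times in SK-UT-1, a 2.08-fold shift (1.72 to 2.51). In hg38 CDC25A lies at chr3:48157178-48188311 on the minus strand and CDC25C at chr5:138285265-138338355 on the minus strand.

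The kinase and its cyclins differed less than CDC25A and CDC25C. CDK1, the mitotic kinase itself, stood at 231 CPM in SK-LMS-1, against 336 CPM in SK-UT-1, 1.46-fold lower in SK-LMS-1 (1.37 to 1.55). CCNB1, the main mitotic cyclin, was 1.31-fold lower in SK-LMS-1 (1.23 to 1.39), at 255 CPM there and 333 CPM in SK-UT-1. CCNB2, its close relative, was 1.66-fold lower in SK-LMS-1 (1.499 to 1.84), at 85.3 CPM there and 142 CPM in SK-UT-1. CCNA2, the cyclin of S and G2 phase, was 1.28-fold lower in SK-LMS-1 (1.197 to 1.37), at 219 CPM there and 280 CPM in SK-UT-1. Per length, CCNB1 had 2.14 times the level of CCNB2 in SK-LMS-1, against 1.68 times in SK-UT-1.

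The Aurora and Polo-like kinases went apart. PLK1, which drives centrosome maturation and mitotic entry, stood at 96.3 CPM in SK-LMS-1, against 232 CPM in SK-UT-1, 2.41-fold lower in SK-LMS-1 (2.197 to 2.64). AURKA, the Aurora kinase of the spindle poles, stood at 236.3 CPM in SK-LMS-1, against 235.8 CPM in SK-UT-1, a difference within counting error. The ratio of AURKA was 1.002 (0.936 to 1.07), and its sign turned with the scaling (log2 0.00 with TMM and -0.15 with library totals). TPX2, the spindle protein that activates Aurora A, stood close to equality too, at 830.1 CPM in SK-LMS-1, against 876 CPM in SK-UT-1, 1.05-fold lower in SK-LMS-1 (1.02 to 1.09). AURKB, the Aurora kinase of the centromere and midzone, was 1.69-fold lower in SK-LMS-1 (1.44 to 1.97), at 36.8 CPM there and 62.0 CPM in SK-UT-1. AURKA had 3.28 times the per-length level of AURKB in SK-LMS-1, against 1.94 times in SK-UT-1. PLK1 lies at chr16:23678822-23690367 on the plus strand.

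The spindle assembly checkpoint genes split, with 2 higher and 3 lower in SK-LMS-1. BUB3, the adaptor that brings BUB1 and BUBR1 to kinetochores, had the highest ratio of all 36 genes, at 291 CPM in SK-LMS-1, against 162 CPM in SK-UT-1, 1.80-fold (1.67 to 1.93) higher in SK-LMS-1. MAD2L1, which encodes MAD2, the inhibitor that captures CDC20, stood at 124 CPM in SK-LMS-1, against 231 CPM in SK-UT-1, 1.87-fold lower in SK-LMS-1 (1.72 to 2.03). Per length, MAD2L1 had 0.818 times the level of BUB3 in SK-LMS-1, against 2.74 times in SK-UT-1, a 3.35-fold shift (3.01 to 3.73) that does not depend on the scaling. TTK, the MPS1 kinase that starts checkpoint signalling, was 1.13-fold (1.06 to 1.21) higher in SK-LMS-1, at 244 CPM there and 216 CPM in SK-UT-1. With library totals its log2 ratio was 0.03 and the interval included equality (-0.07 to 0.12). BUB1, a kinetochore kinase, was 1.15-fold lower in SK-LMS-1 (1.08 to 1.24), at 224 CPM there and 258 CPM in SK-UT-1. BUB1B, which encodes BUBR1, was 1.16-fold lower in SK-LMS-1 (1.09 to 1.24), at 235 CPM there and 273 CPM in SK-UT-1. BUB1 and BUB1B, paralogues, kept nearly the same proportion: 0.978 in SK-LMS-1, against 0.972 in SK-UT-1 per length, a shift of 1.006-fold (0.917 to 1.105). BUB3 lies at chr10:123154244-123165370 on the plus strand, and 4.60% of the exon bases of BUB1B overlap PAK6 on the same strand.

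The genes of anaphase onset were the most uniform group, with 4 of 4 lower in SK-LMS-1 and log2 ratios between -1.004 and -0.66. Among all measured genes 49.7% were lower by any amount, and among the 36 mitotic genes 29 were. CDC20, the APC/C activator that the checkpoint holds back, was 1.66-fold lower in SK-LMS-1 (1.49 to 1.84), at 83.2 CPM there and 138 CPM in SK-UT-1. UBE2C, the conjugating enzyme that works with APC/C, was 1.58-fold lower in SK-LMS-1 (1.40 to 1.79), at 60.6 CPM there and 95.9 CPM in SK-UT-1. PTTG1, which encodes securin, stood at 153 CPM in SK-LMS-1, against 259 CPM in SK-UT-1, 1.69-fold lower in SK-LMS-1 (1.57 to 1.83). ESPL1, which encodes separase, the protease that securin blocks and that cuts cohesin, stood at 41.5 CPM in SK-LMS-1, against 83.2 CPM in SK-UT-1. Its 2.01-fold lower level in SK-LMS-1 (1.74 to 2.32) lies at the 2-fold limit, and it passed to the other side with the deeper library thinned. PTTG1 has near-identical copies, of which PTTG2 had 0 counts in both lines and PTTG3P had 1 in SK-LMS-1, against 4 in SK-UT-1, and how reads shared with the copies were placed is unknown, so the value of PTTG1 is uncertain. Per length, securin RNA exceeded separase RNA 21.03 times in SK-LMS-1, against 17.8 times in SK-UT-1.

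Kinetochore genes divided inside the Ndc80 complex, the 4-protein rod that grips microtubules. NDC80, its largest subunit, was 1.38-fold (1.29 to 1.48) higher in SK-LMS-1, at 265 CPM there and 192 CPM in SK-UT-1. NUF2, its direct partner, was 1.595-fold lower in SK-LMS-1 (1.45 to 1.76), at 93.9 CPM there and 150 CPM in SK-UT-1. Per length, NDC80 had 2.58 times the level of NUF2 in SK-LMS-1, against 1.17 times in SK-UT-1, a 2.199-fold shift (1.95 to 2.48). SPC24, at the end of the rod that faces the centromere, was 1.51-fold (1.14 to 1.99) higher in SK-LMS-1, from 119 counts in SK-LMS-1, against 97 in SK-UT-1. SPC25, its partner, was 1.34-fold lower in SK-LMS-1 (1.10 to 1.63), from 166 counts in SK-LMS-1, against 273 in SK-UT-1. SPC25 is listed on chromosome 2 and again on an alternate copy of that region, so its counts and exon length are uncertain. CENPF, a large G2 protein of the outer kinetochore, stood at 496 CPM in SK-LMS-1, against 1056 CPM in SK-UT-1, 2.13-fold lower in SK-LMS-1 (2.04 to 2.21). CENPE, the kinesin that moves chromosomes to the spindle equator, was 1.64-fold lower in SK-LMS-1 (1.54 to 1.75), at 215 CPM there and 352 CPM in SK-UT-1. CENPF lies at chr1:214603189-214664571 on the plus strand.

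The chromosomal passenger complex corrects wrong attachments and later guides cytokinesis. Of its 4 genes, 4 were lower in SK-LMS-1, against 49.7% of all measured genes and 29 of the 36 mitotic genes. The kinase of the complex, AURKB, given above, differed most. INCENP, the scaffold, was 1.17-fold lower in SK-LMS-1 (1.04 to 1.31), at 81.2 CPM there and 94.7 CPM in SK-UT-1. BIRC5, which encodes survivin, was 1.26-fold lower in SK-LMS-1 (1.14 to 1.40), at 99.5 CPM there and 126 CPM in SK-UT-1. CDCA8, which encodes borealin, was 1.202-fold lower in SK-LMS-1 (1.11 to 1.31), at 146 CPM there and 175 CPM in SK-UT-1. Survivin and borealin kept their proportion to INCENP within counting error. The shifts were 1.08-fold (0.933 to 1.26) for BIRC5 and 1.03-fold (0.898 to 1.18) for CDCA8. For AURKB the shift was 1.446-fold (1.196 to 1.75), at 1.44 times the per-length level of INCENP in SK-LMS-1, against 2.09 times in SK-UT-1.

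Spindle and cytokinesis genes ranged from the most abundant gene per length in SK-LMS-1 to some of the lowest ratios. ANLN, which encodes anillin, the scaffold of the contractile ring, stood at 1418 CPM in SK-LMS-1, against 838 CPM in SK-UT-1, 1.69-fold (1.64 to 1.75) higher in SK-LMS-1. HMMR, a microtubule-binding protein that positions TPX2 on the spindle, was 1.57-fold (1.46 to 1.68) higher in SK-LMS-1, at 275 CPM there and 176 CPM in SK-UT-1. NUSAP1, which bundles microtubules near chromosomes, stood at 239 CPM in SK-LMS-1, against 566 CPM in SK-UT-1, 2.37-fold lower in SK-LMS-1 (2.24 to 2.52). ASPM, a spindle pole protein, was 1.59-fold lower in SK-LMS-1 (1.53 to 1.66), at 542 CPM there and 861 CPM in SK-UT-1. PRC1, which bundles the microtubules of the central spindle, stood at 255 CPM in SK-LMS-1, against 264 CPM in SK-UT-1, 1.03-fold lower in SK-LMS-1 (0.970 to 1.104) and thus within counting error. With library totals its log2 ratio was -0.20 (-0.29 to -0.11). ANLN lies at chr7:36389803-36453791 and NUSAP1 at chr15:41332694-41381050, both on the plus strand.

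Of the chromosome and proliferation genes, TOP2A differed more than MKI67. TOP2A, the topoisomerase that untangles sister chromosomes, stood at 704 CPM in SK-LMS-1, against 1762 CPM in SK-UT-1, with 4614 counts in SK-LMS-1, against 14184 in SK-UT-1. It was 2.50-fold lower in SK-LMS-1 (2.42 to 2.59). MKI67, which encodes the marker Ki-67, stood at 843 CPM in SK-LMS-1, against 1146 CPM in SK-UT-1, 1.36-fold lower in SK-LMS-1 (1.31 to 1.41). Per length, TOP2A had 1.81 times the level of MKI67 in SK-LMS-1, against 3.34 times in SK-UT-1, a 1.84-fold shift (1.76 to 1.93). TOP2A lies at chr17:40388521-40417950 on the minus strand.

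Levels can be compared between genes as CPM per kilobase of exon. In SK-LMS-1 the order was led by ANLN at 296, TPX2 at 227 and PTTG1 at 132 CPM per kilobase, and in SK-UT-1 by TOP2A at 306, TPX2 at 239 and NUSAP1 at 231. ESPL1 stood last in SK-LMS-1 at 6.27, and in SK-UT-1 it stood at 12.57, beside SPC25 at 12.60, whose length is uncertain, so that their order there is not settled. PLK1 was 26th of 36 in SK-LMS-1 and 8th in SK-UT-1, whereas BUB3 was 7th in SK-LMS-1 and 25th in SK-UT-1 and HMMR was 10th in SK-LMS-1 and 26th in SK-UT-1. Across the 36 genes the log2 levels per length of the lines had a Pearson's r of 0.883 and a Spearman's rho of 0.787. These points share exon lengths and 2 libraries, and the values are a description.

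**Figure D4:**
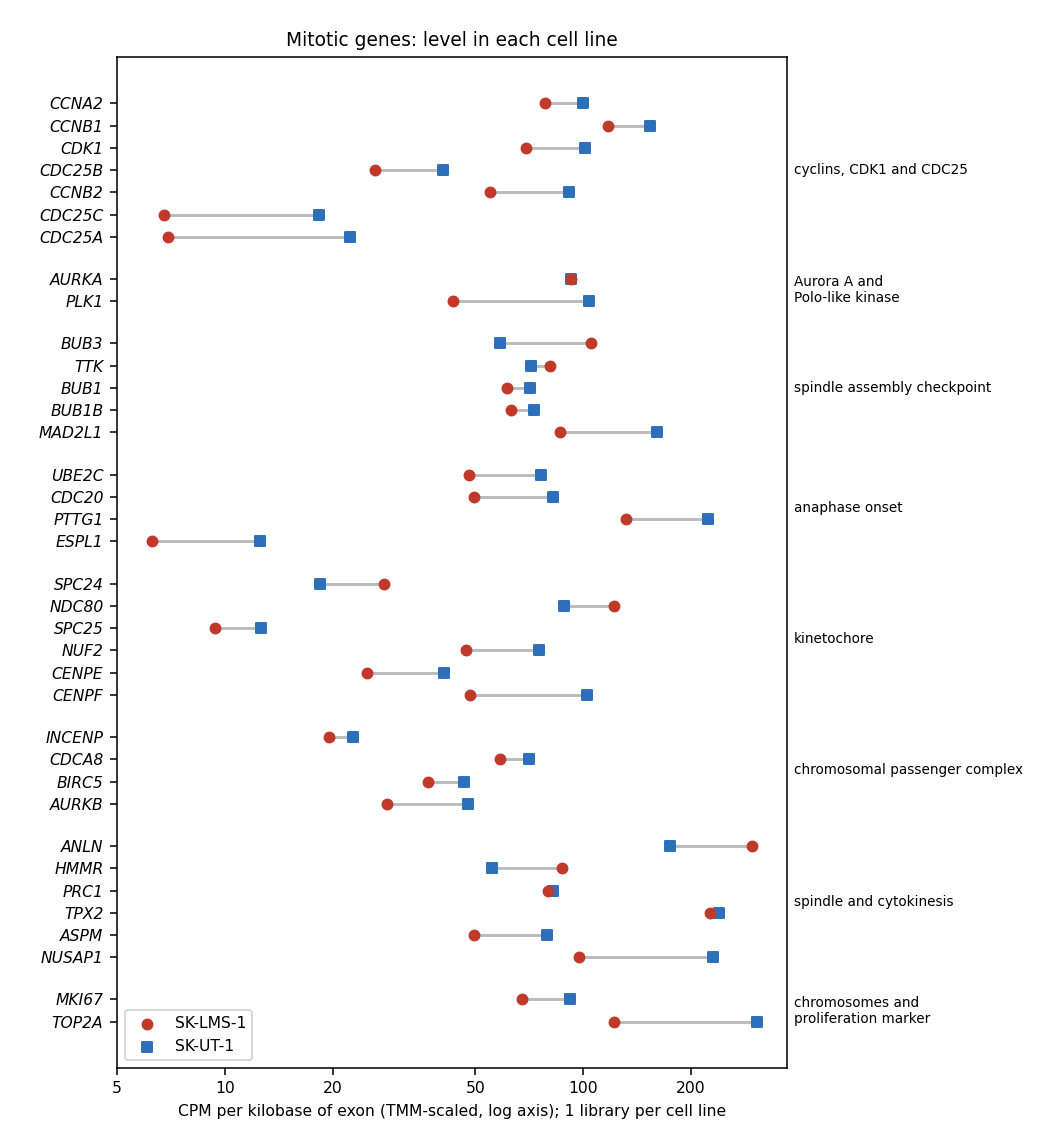
Level of each mitotic gene in CPM per kilobase of exon (TMM-scaled, log axis) in SK-LMS-1 (circles) and SK-UT-1 (squares), grouped by role, 1 library per line. Circles lie left of squares for most genes, and right of them for BUB3, TTK, SPC24, NDC80, ANLN and HMMR; the length of SPC25 is uncertain.

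Most lists of related genes outside the 36 also had medians below equality. Of 26 regulators of mitotic entry and exit, 9 were at least 2-fold lower in SK-LMS-1 (34.6%, against 18.3% of all measured genes), 0 were at least 2-fold higher and 17 lay within 2-fold (median log2 ratio -0.72). FAM64A, now called PIMREG, stood at 13.6 CPM in SK-LMS-1, against 48.8 CPM in SK-UT-1, 3.59-fold lower in SK-LMS-1 (2.85 to 4.58). NEK2, a centrosome kinase, was 3.52-fold lower in SK-LMS-1 (3.10 to 4.01), at 44.6 CPM there and 157 CPM in SK-UT-1. Among 36 other kinetochore and centromere genes (median -0.23), 8 were at least 2-fold lower in SK-LMS-1, 0 were higher by that fold and 28 lay within it. The 8 were 22.2%, near the 18.3% of all measured genes and above the 11.6% of those at 20 CPM or more. The limit of 20 CPM was not applied to the list itself. CENPU, of the inner kinetochore, was 3.37-fold lower in SK-LMS-1 (2.98 to 3.82), and STRA13, now called CENPX, 3.65-fold lower (2.49 to 5.50).

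The 33 centrosome, spindle and cytokinesis genes (median -0.43) held 4 at least 2-fold lower in SK-LMS-1, 0 higher by that fold and 29 within it. The 4 were 12.1%, below the 18.3% of all measured genes but near the 11.6% of those at 20 CPM or more. This list, too, was not limited to 20 CPM. PSRC1, a microtubule-binding protein, was 3.01-fold lower in SK-LMS-1 (2.57 to 3.55), and SPAG5, a spindle protein also called astrin, 2.11-fold lower (1.95 to 2.29). Cohesin and condensin genes lay mostly within 2-fold, 21 of 23 (median -0.14). The exceptions were both cohesin subunits: STAG2 was 2.19-fold (2.104 to 2.28) higher in SK-LMS-1 and SMC1A 2.88-fold lower (2.68 to 3.11). All 18 other APC/C genes lay within 2-fold. Their median was 0.14 with TMM and -0.01 with library totals, so it has no firm direction. The 49 G1/S and replication genes, the nearest comparison outside mitosis, had 9 at least 2-fold lower in SK-LMS-1, 0 higher by that fold and 40 within it. The 9 were 18.4%, near the 18.3% of all measured genes and above the 11.6% of those at 20 CPM or more. Genes of the list below 20 CPM were kept. The median of all 49, at -0.54, was close to the -0.49 of the mitotic genes. Of the 49, 45 were lower in SK-LMS-1 (91.8%, against 49.7% of all measured genes). CCNE1, the cyclin of S phase entry, was 4.39-fold lower in SK-LMS-1 (3.35 to 5.84) and DTL, a replication-coupled ubiquitin ligase adaptor, 3.36-fold lower (2.96 to 3.83). Of 22 genes often used as scaling controls, 20 lay within 2-fold, with a median of 0.21.

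Some mitotic genes differed in the same direction as the genes around them on the chromosome. For each gene, the median log2 ratio was taken over the measured genes within 5 Mb on either side, leaving out the 36. TOP2A, with a log2 ratio of -1.32, lay among genes with a median of -0.76. On chromosome 1, NUF2 at -0.67 lay among genes at -0.85, ASPM at -0.67 among genes at -0.58 and CENPF at -1.09 among genes at -0.41. ANLN at 0.76 lay among genes at 0.76. TTK on chromosome 6, at 0.18, lay well below its neighbours at 1.93. CDC25C at -1.44 lay among genes at 0.56, CDC25A at -1.68 among genes at -0.18 and BUB3 at 0.85 among genes at 0.02. Against their own neighbours, 31 of 36 mitotic genes were lower, against 49.9% of all genes with such a value. The median difference from the neighbours was -0.48. The part of the neighbourhoods in these ratios was not tested.

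**Figure D5:**
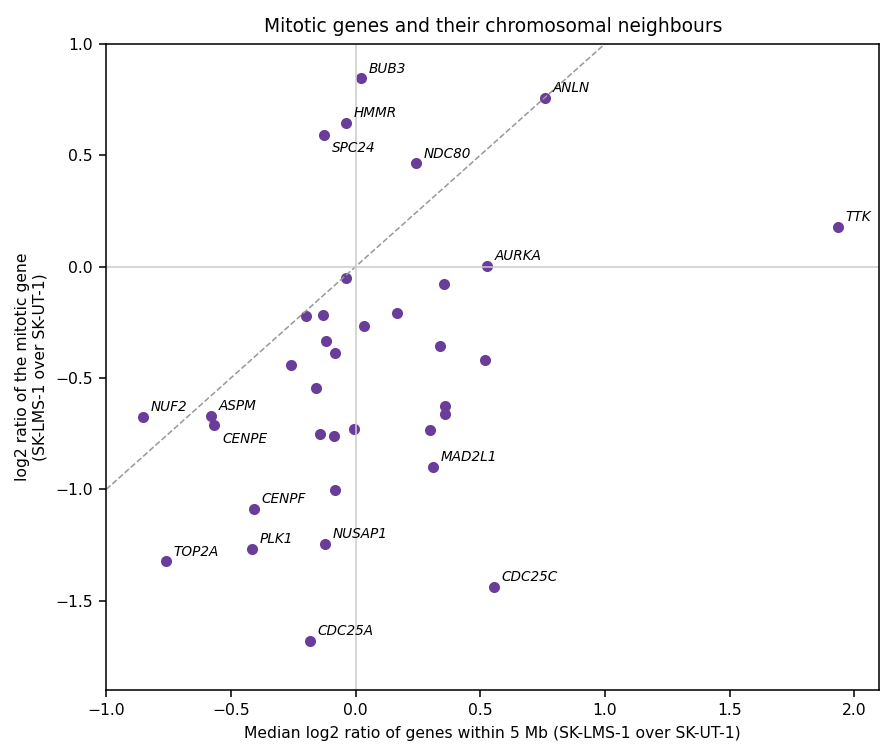
Log2 ratio (SK-LMS-1 over SK-UT-1) of each of the 36 mitotic genes against the median of the measured genes within 5 Mb. The dashed line marks equality of gene and neighbours; 31 points lie below it, TTK farthest to the right at a neighbour median of 1.93.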

How the data were processed

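Per the file headers, the authors counted fragments per gene with featureCounts 2.0.1 over exons of a UCSC hg38 annotation, with strand setting 1 and fragments that overlap several genes counted for each. The deposited values are raw counts, used as deposited, and the exon lengths come from the same table. Libraries were made with a stranded SMARTer total RNA kit, per the labels' protocols. No aligner is named in what was used here. A further 2 columns of counts match neither sample and were not used.

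Library sizes were scaled with edgeR 4.0.16 (TMM factor 0.949 in SK-LMS-1, against 1.05 in SK-UT-1) in R 4.3.3. Counts below 3 were raised to 3 in ratios. Fold intervals are exact conditional binomial (Clopper-Pearson) intervals. Shifts between 2 genes are odds ratios of counts with log-scale intervals. No molecular identifiers are named, and fragments copied by PCR are not independent, so intervals can be too narrow. CPM per kilobase was used in place of TPM, because RN7SK took 11092 CPM in SK-LMS-1, against 5157 CPM in SK-UT-1 and shifts TPM. MALAT1, another abundant RNA of the library make-up list, took 2717 CPM in SK-LMS-1, against 5738 CPM in SK-UT-1. The calculation of ratios and intervals was run on simulated counts with counting error only, which the intervals assume. It therefore could not check the effect of PCR copies or of differences between libraries.

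The members and lists were chosen with earlier results of these data known. Named genes were all 36 members and, from each related list, up to 2 per direction with the largest ratio at 2-fold and 5 CPM or more, and from each marker list the most abundant gene in each line. MYOCD, MYH11, MYLK, TAGLN, ACTA2, DES, LMOD1, EPCAM, CD14, PTPRC, VWF, KDR and TEK fall outside this rule. They were chosen after their values were seen. For the other marker lists the most abundant genes were KRT18, KRT19 and CD68, given above, and PECAM1 (1.22 CPM in SK-LMS-1, 0 counts in SK-UT-1). Among the scaling controls, PPIA was 2.27-fold (2.11 to 2.43) higher in SK-LMS-1 and SDHA 2.52-fold lower (2.26 to 2.80). Alternatives were library totals, DESeq2 1.42.0 size factors, the upper quartile, other filters, a floor of 1 count and thinning. A further one left out SPC25, which is listed at several loci. PTTG1, AURKA and BUB1B, which may share reads with copies or with an overlapping gene, were kept.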

Additional observations from a re-analysis of the deposited data

How the results depend on the processing

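The direction of the mitotic median and the counts at 1.5-fold and 2-fold moved little under the 9 alternatives run. Not all of these could move them. The floor of 1 count, no filter and the 5 CPM filter could not, because all 36 genes had at least 97 counts in each line and passed 5 CPM. The 20 CPM filter left out only SPC24, and another alternative only SPC25. Only the scalings and the thinning could change the ratio of a single gene. The median log2 ratio lay between -0.65 (library totals) and -0.48 (deeper library thinned). The count at least 2-fold lower in SK-LMS-1 lay between 6 and 8, and that at least 1.5-fold lower between 17 and 19. That lower by any amount lay between 28 and 30, where the 28 came from leaving out SPC25 and not from a changed direction. In each alternative 0 genes passed 2-fold in the opposite direction. The share over all measured genes moved too: with library totals 21.6% were lower by 2-fold or more, 33.7% by 1.5-fold or more and 55.8% by any amount. Library totals and the upper quartile moved the median of all measured genes to -0.15 and -0.14. Relative to those, the mitotic median was -0.49 with each, and -0.50 with TMM. Under these 2 scalings MAD2L1 passed 2-fold, and AURKA changed sign under both and with the deeper library thinned. No other of the 36 genes changed sign in these alternatives, but 28 of 36 ratios left their interval with library totals and 24 of 36 with the upper quartile. Under both, the intervals of AURKA and PRC1 lay below equality (30 genes in place of 28) and that of TTK included it (5 genes above in place of 6). With library totals, G1/S genes lower in SK-LMS-1 by 2-fold or more numbered 14 in place of 9, and STAG2 no longer reached 2-fold with them or the upper quartile. No paired analysis was possible because each line has 1 library. With 114 to 9290 counts per gene in SK-LMS-1, against 97 to 14184 in SK-UT-1, depth limits mainly SPC24, CDC25C, CDC25A and SPC25.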

Other observations

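Genes with and without a CHR core in a promoter window had similar ratios. The search covered only TTTGAA and TTCGAA, so genes without a match may hold other forms of the element. The 23 genes with a match had a median log2 ratio of -0.63 (from -1.44 to 0.76), and the 7 without one -0.71 (from -1.68 to 0.59). The 25 genes with CCAAT had a median of -0.67 and the 5 without it -0.22. The 3 genes with an E2F-type match had a median of -1.25 and the 27 without one -0.63. ANLN, BUB1B, NDC80 and NUF2 had a CHR core and no CCAAT, and CENPE had neither in its window. Across the 36 genes, the ratio had a Spearman's rho of 0.04 with exon length, 0.18 with the mean log2 CPM and 0.39 with the median of the chromosomal neighbours. These are descriptions over genes that share 2 libraries. AURKAPS1, a processed copy of AURKA, had 3 counts in SK-LMS-1, against 22 in SK-UT-1. AURKA itself had 1548 in SK-LMS-1, against 1898 in SK-UT-1.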
